A study of Saccharomyces cerevisiae with 46 samples.

Results

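Wildtype LY1 was compared with 7 lines of the same yeast series that carried no gained chromosome, to see whether anything smaller than a chromosome set them apart. LY1 is the strain that the labels call wildtype, and it was sequenced in 3 states, labelled non-evolved, evolved and evolved_Bub3, with 1 sample each. The lines carry the codes G1, F3, D3, D1, C3, C1 and B2, each sequenced as a non-evolved and an evolved sample. The comparison therefore held 17 of the 46 samples, from 8 strains, and the 7 lines are 7 of 20 in the series. Members were selected on the level of each chromosome: no chromosome of these lines reached a log2 copy ratio of 0.3 in either state. Chromosome levels are for that reason a description here and carry no test.

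All samples are overnight cultures of Saccharomyces cerevisiae in the W303 background, and genomic DNA was sequenced after tagmentation, per the labels. The series title names chromosome-specific aneuploidy in cells that lack Bub3. The labels used here do not give the genotype or ploidy of the lines, the meaning of a line's code, the length of the evolution or what was added in the evolved_Bub3 sample. They also do not say whether the 3 LY1 samples or the 2 samples of a line came from separate cultures, so the spread within a strain may be technical. The evolved_Bub3 state has no counterpart among the lines.

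Bub3 is a protein of the spindle assembly checkpoint, which delays the separation of sister chromatids until every kinetochore is attached to the spindle. It works with Bub1 at the kinetochore, and cells without it gain and lose whole chromosomes more often. Smaller copy number changes in budding yeast often sit in repeats: the ribosomal DNA array on chromosome XII, the metallothionein array CUP1 on chromosome VIII, the sodium pump genes ENA on chromosome IV and the subtelomeres. The silent mating-type cassettes HML and HMR lie near the ends of chromosome III and share sequence with the MAT locus, whose allele sets the mating type. The mitochondrial genome is present in many copies, and cells can lose it or keep only a stretch of it when they grow by fermentation.

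The values were log2 copy ratios of 1 kb bins, each the reads of a bin over the median bin of that sample, in the coordinates of the R64 reference of strain S288C. Total depth was 2174504 to 3770032 reads per sample, and the 3 LY1 samples held 2227799, 3251185 and 2955926 reads in the order non-evolved, evolved and evolved_Bub3. A median bin held 167 to 292 reads. The spread of nuclear bins around their chromosome was 0.133 to 0.186 on the log2 scale. It was highest in the B2 non-evolved sample, at 0.186, and next in the LY1 non-evolved sample, at 0.164. Their median bins held 167 and 175 reads, the fewest of the 17 samples together with D1 evolved at 175. Chromosome levels lay between -0.03 and 0.06 in LY1 and between -0.07 and 0.19 in the lines. The line maximum was chromosome VI of B2 non-evolved, and the next highest sample maximum was 0.06. The lowest level counted as a gain elsewhere in the series was 0.38, chromosome III of line D4 evolved.

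At a few places the LY1 non-evolved library stood apart from both later LY1 libraries. The first is the 1 kb bin on chromosome III (293001 to 294000) that holds HMRA2 (293179 to 293538) and the start of HMRA1 (293835 to 294321), genes of the silent a cassette HMR. Relative to the chromosome its level was 0.21 in LY1 non-evolved, -0.88 in LY1 evolved and -0.56 in LY1 evolved_Bub3, from 208, 140 and 154 reads. The lines fell on both sides as well. C3 (0.19 and -0.07), D1 (0.10 and 0.14) and D3 (0.10 and 0.11) lay near the first LY1 library. C1 (-0.49 and -0.56), F3 (-0.78 and -0.73) and G1 (-0.71 and -0.67) lay near the later libraries, and B2 had -0.30 and -0.72, non-evolved first in each case. In the bin that follows (294001 to 295000), which holds the rest of HMRA1, LY1 read 0.50, -0.19 and 0.06.

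The second is the last bin of chromosome IX (439001 to 439888), which overlaps no gene in the table used. It had 0.30 in LY1 non-evolved, -2.57 in evolved and -3.29 in evolved_Bub3, from 216, 43 and 23 reads. Among the lines, B2 was high in both states (0.34 and 0.25), D1 was high when non-evolved and low when evolved (0.56 and -2.93), and the other 5 lines lay between -2.36 and -3.17. The LY1 libraries thus go apart from each other at 2 loci where lines also differ. Whether they share 1 genotype was not tested. The numbers of bins, ends and loci that set LY1 apart from the lines are also given without the non-evolved library. The change between states needs that library and has no such version. The plot of single loci shows these bins by sample.

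**Figure D1:**
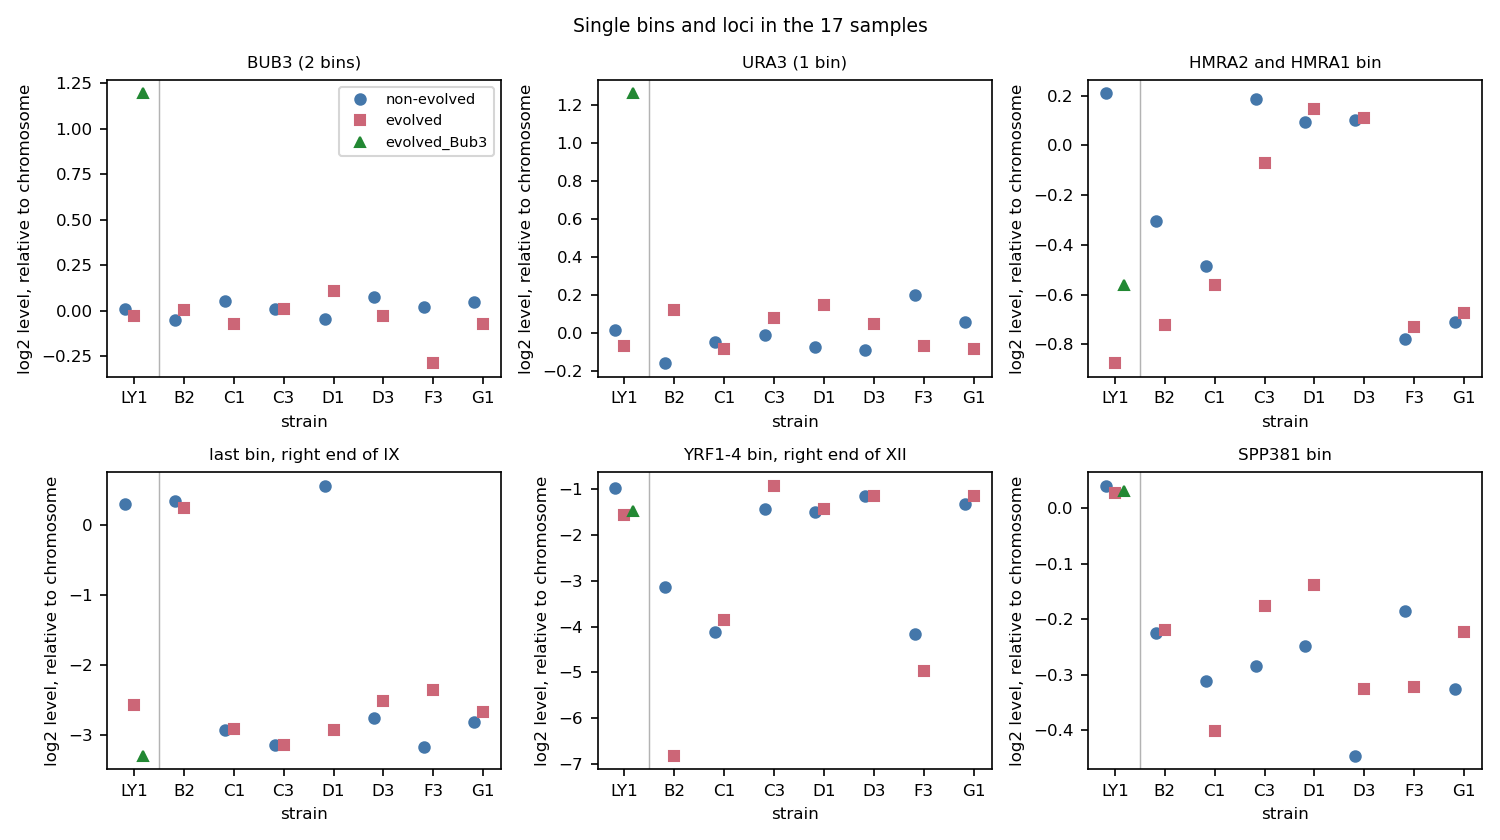
Log2 level of 6 single bins or loci relative to their own chromosome (y axis, its range set per panel) in each of the 17 samples (x axis, by strain; symbols mark the state), 1 point per sample. BUB3 and URA3 are high in the LY1 evolved_Bub3 sample alone, at 1.19 and 1.26, while the HMR bin and the last bin of chromosome IX separate LY1 non-evolved from the later LY1 samples.

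No single 1 kb bin passed the test between LY1 and the lines. The 8 strain means were compared with limma in 11900 bins, each centred on its chromosome, and 0 bins (0.0%) had an adjusted p under 0.05. At an unadjusted p under 0.05 in limma there were 247 bins, and the lowest adjusted p was 0.215. Those 247 are fewer than the 1 in 20 that chance gives, so they are no excess. With all 17 samples and the strain as a block the number was 698, so it depends on how the strain enters. LY1 enters as 1 strain whose spread is taken to be that of the lines, which gave a median standard error of 0.0964 and a median 95% interval of ±0.191 around the difference. Absolute differences of 0.3 or more were seen in 121 bins, while 98.98% of the bins lay under 0.3. Without the LY1 non-evolved library 3 bins passed, without LY1 evolved also 3, and without LY1 evolved_Bub3 1, a nearly empty bin of ENA1 with a mean of 7.2 reads.

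**Figure D2:**
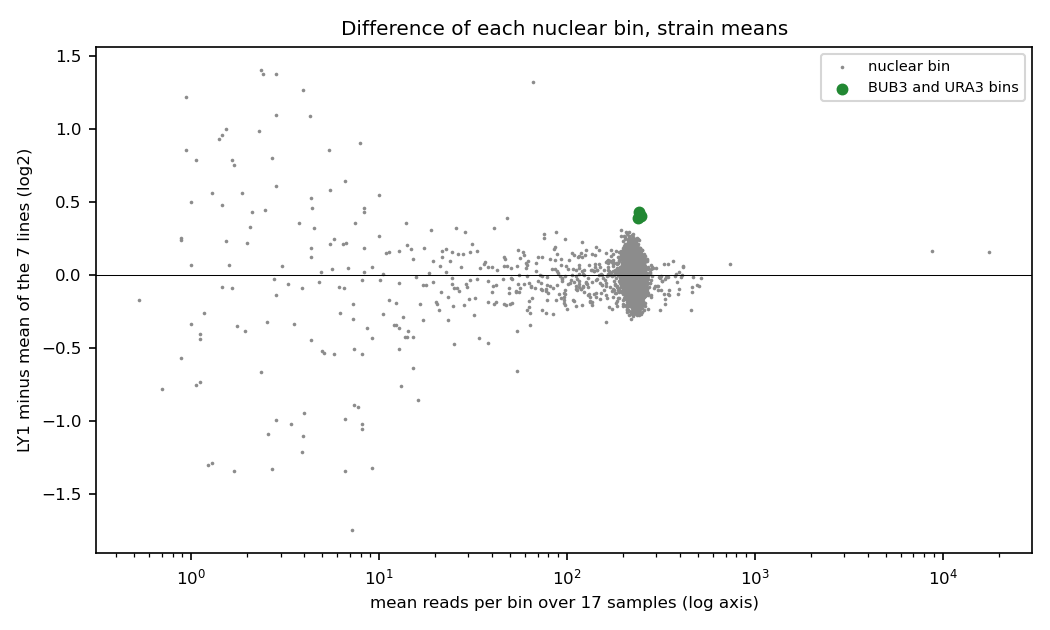
Difference of each tested nuclear 1 kb bin between LY1 and the mean of the 7 lines (y axis, log2 units) against the mean reads of the bin over the 17 samples (x axis, log scale), 1 point per bin. The 3 bins of BUB3 and URA3 (0.39 to 0.43) stand above the mass of bins near 0, and the wide scatter lies at bins with few reads.

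BUB3, the checkpoint gene that the series is about (YOR026W, chromosome XV, 379781 to 380806), was measured by 2 bins. Its level relative to the chromosome was 0.01 in LY1 non-evolved, -0.03 in LY1 evolved and 1.19 in LY1 evolved_Bub3. In the 14 line samples it ran from -0.29 (F3 evolved) to 0.11, with a median of 0.01. Reads over the gene were thus present near the level of its chromosome in every line sample, and far above it in the evolved_Bub3 sample alone. In the first bin (379001 to 380000) the LY1 samples held 183, 231 and 497 reads, and in the second (380001 to 381000) 168, 263 and 523. The strain difference was 0.39 ± 0.09 (SE, limma adjusted p = 0.297) in the first bin and 0.43 ± 0.09 (limma adjusted p = 0.215) in the second, and it rests on 1 of the 3 LY1 libraries. With that library left out, the difference over the gene was 0.01.

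URA3, the orotidine phosphate decarboxylase gene that is widely used as a selectable marker (YEL021W, chromosome V, 116167 to 116970), had the same shape. Its bin was at 0.02, -0.07 and 1.26 in LY1 non-evolved, evolved and evolved_Bub3, from 180, 242 and 539 reads. The line samples ran from -0.16 to 0.20. The difference between the strain means was 0.40 ± 0.09 (SE, limma adjusted p = 0.215), and it was -0.03 without the evolved_Bub3 library. When LY1 non-evolved or LY1 evolved was left out, which gives evolved_Bub3 more weight, the bins that passed were these 3 of BUB3 and URA3.

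The rise was narrow at both places. Beside BUB3, the bin before it (378001 to 379000, in the deacetylase gene HST3) was at 0.15 in evolved_Bub3, inside the line range of -0.20 to 0.28. The bin after it (381001 to 382000, in the co-chaperone gene STI1) was at 0.41, above the line range of -0.32 to 0.22, and the next was at -0.06. Beside URA3, the bin before was at 0.23 in evolved_Bub3 against -0.19 to 0.04 in the lines. The bin after it, which holds TIM9 and the RNase P RNA gene RPR1, was at 0.34 against -0.20 to 0.22, and the next was at 0.00. What DNA the additional reads come from was not tested.

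The other 7 marker loci did not share this pattern. ADE2, TRP1, CAN1, LEU2, HIS3, LYS2 and MET17, genes of adenine, tryptophan, leucine, histidine, lysine and methionine synthesis and of arginine uptake, had LY1 sample levels from -0.12 to 0.20. The line samples ran from -0.17 to 0.29. Their strain differences lay between -0.07 and 0.02.

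Bins in which all 3 LY1 samples lay outside all 14 line samples were few. LY1 was below every line sample in 24 bins, which is 0.202% of those tested, and above every line sample in 22 bins, 0.185%. Of these 46 bins, 44 held a mean of 50 reads or more, and their differences were small: 0.13 to 0.31 above, with a median of 0.20, and -0.30 to -0.15 below, with a median of -0.21. None was mitochondrial, and none passed the test over all bins. The examples that follow were chosen after their values were seen.

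The bin over SPP381 on chromosome II (546001 to 547000), a gene for a splicing factor of the tri-snRNP (546376 to 547251), was at 0.04, 0.03 and 0.03 in the 3 LY1 samples. The 14 line samples ran from -0.45 to -0.14. The LY1 values are nearly equal and all above the lines, with a difference of 0.31 ± 0.10 (SE, unadjusted p = 0.0041 and adjusted p = 0.9999 in the limma fit). The bin on chromosome XIV (167001 to 168000) with the end of FOL1, a gene of folate synthesis, and with GIS2, a gene for a zinc-knuckle RNA-binding protein, went the other way. It was at -0.31, -0.33 and -0.28 in LY1 and from -0.21 to 0.22 in the lines, a difference of -0.30 ± 0.10 (SE, unadjusted p = 0.00284 and adjusted p = 0.9999 in the limma fit). The bin over MAL32, a maltase gene near the right end of chromosome II, was at -0.56, -0.75 and -0.56 in LY1, just below the line range of -0.55 to -0.07.

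The change from non-evolved to evolved was compared between LY1 and the lines as a difference of differences, with 1 change per strain. The limma fit called 4 of 11900 bins (0.0336%), 1 higher and 3 lower in LY1, with 706 at an unadjusted p under 0.05. When the variance trend was drawn against the mean level of the bin in place of the mean change, 0 bins passed and the lowest adjusted p was 0.0637. Both trends had been run before the first was kept, so these 4 calls rest on that choice. With LY1 evolved_Bub3 in place of LY1 evolved, 1 of the 4 bins, that of YDR261W-B, was still called, together with the 3 bins of BUB3 and URA3. The 3 lower calls were lost. Their differences in change became -0.82 in the bin of YHR214C-D, -0.83 in that of YBL005W-B and -0.23 in that at the end of FLO1. Only the last thus rests mostly on the LY1 evolved library. In the bins of YHR214C-D, YBL005W-B and YDR261W-B the LY1 non-evolved library lay outside all line samples, by little in that of YBL005W-B. Every change in LY1 uses this non-evolved library, so none can be given without it. All 4 bins were thinly covered, with 78.4, 61.1, 15.2 and 15.1 mean reads. The kept trend takes no account of coverage, so the SE and p-values printed for these bins may be too small. Whether their reads also match other places in the genome was not tested, so they may not measure single-copy sequence.

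The bin that overlaps YHR214C-D on chromosome VIII (550001 to 551000) was at -1.20 in LY1 non-evolved, -2.50 in LY1 evolved and -2.05 in evolved_Bub3, from 76, 45 and 54 reads. The line samples ran from -2.42 to -1.61. LY1 non-evolved alone was above them and LY1 evolved alone below them, a difference in change of -1.27 ± 0.22 (SE, limma adjusted p = 0.00219, and 0.371 with the other trend). The bin of YBL005W-B on chromosome II (224001 to 225000) was at -1.09, -2.13 and -1.81 in LY1 and from -2.07 to -1.11 in the lines. LY1 thus spanned the whole line range, with a difference in change of -1.16 ± 0.21 (SE, limma adjusted p = 0.00807, and 0.371 with the other trend).

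The bin of YDR261W-B on chromosome IV (983001 to 984000) went from 3 reads in LY1 non-evolved to 21 in LY1 evolved. Its levels were -5.83, -3.56 and -4.21 in LY1 and -4.85 to -2.80 in the lines, a difference in change of 2.85 ± 0.36 (SE, limma adjusted p = 0.00807, and 0.297 with the other trend). The bin that holds the end of FLO1 and what follows it on chromosome I (208001 to 209000) went from 11 to 6 reads. Its levels were -4.04, -5.41 and -3.73 in LY1 and -5.05 to -3.18 in the lines, a difference in change of -1.91 ± 0.40 (SE, limma adjusted p = 0.0366, and 0.689 with the other trend). FLO1, a cell-wall flocculin gene, ends at 208016, so nearly all of this bin lies beyond it.

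The HMR bin lay just outside this call. Its change was -1.08 in LY1 and -0.09 in the mean of the lines, where the largest fall was -0.42 in B2. The difference in change was -0.998 ± 0.223 (SE, limma adjusted p = 0.0696). Of 17 alternatives it passed in 3 (without B2, over bins covered in all 17 samples and over bins of 50 mean reads or more) and missed in 14, with limma adjusted p from 0.00596 to 0.867. With LY1 evolved_Bub3 in place of LY1 evolved the difference was -0.68 (limma adjusted p = 0.496). At 189 mean reads it was far better covered than the 4 called bins. The last bin of chromosome IX changed by -2.87 in LY1 and by -0.34 in the lines, a difference of -2.53 ± 1.24 (SE, limma adjusted p = 0.832), and D1 fell as LY1 did.

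Subtelomeres were read as the mean level of the covered bins within 20 kb of each of the 32 chromosome ends. None of the ends passed the test (0.0%), with 2 at an unadjusted p under 0.05 in limma. The lowest difference was at the right end of chromosome XIV, where LY1 had -1.91, -2.16 and -2.47 and the lines had a mean of -1.85 ± 0.07 (SD, n = 7 strains). Single line samples ran from -2.16 (F3 non-evolved) to -1.46 (F3 evolved). LY1 non-evolved lay inside that range, LY1 evolved at its lower edge, and evolved_Bub3 alone clearly below it. The LY1 mean of -2.18 lay below the line means, which ran from -1.94 to -1.74. The difference was -0.33 ± 0.08 (SE, limma adjusted p = 0.0554). In 17 alternatives it passed in 4 and missed the threshold in 13, with limma adjusted p from 0.00554 (without LY1 non-evolved, when 2 ends were called) to 0.997 (the median of covered bins, where the difference was -0.08). It rests in part on 1 library: without LY1 evolved_Bub3 the difference was -0.19 (limma adjusted p = 0.549).

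That end rests on bins with few reads. In the bin that holds the end of PAU6, a seripauperin gene (782001 to 783000), LY1 had 0 reads in each sample and the lines 0 to 5. That bin counted as covered only through line samples that held reads, so its low LY1 level is no support for the difference. In the bin of YNR077C (783001 to 784000) LY1 had 10, 5 and 1 reads and the lines 3 to 16. The other low ends were the right end of XV, with a difference of -0.16, and the left end of IV, at -0.15. The highest were the left end of X at 0.34, the left end of IX at 0.26 and the right end of XII at 0.23, none past the test.

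**Figure D3:**
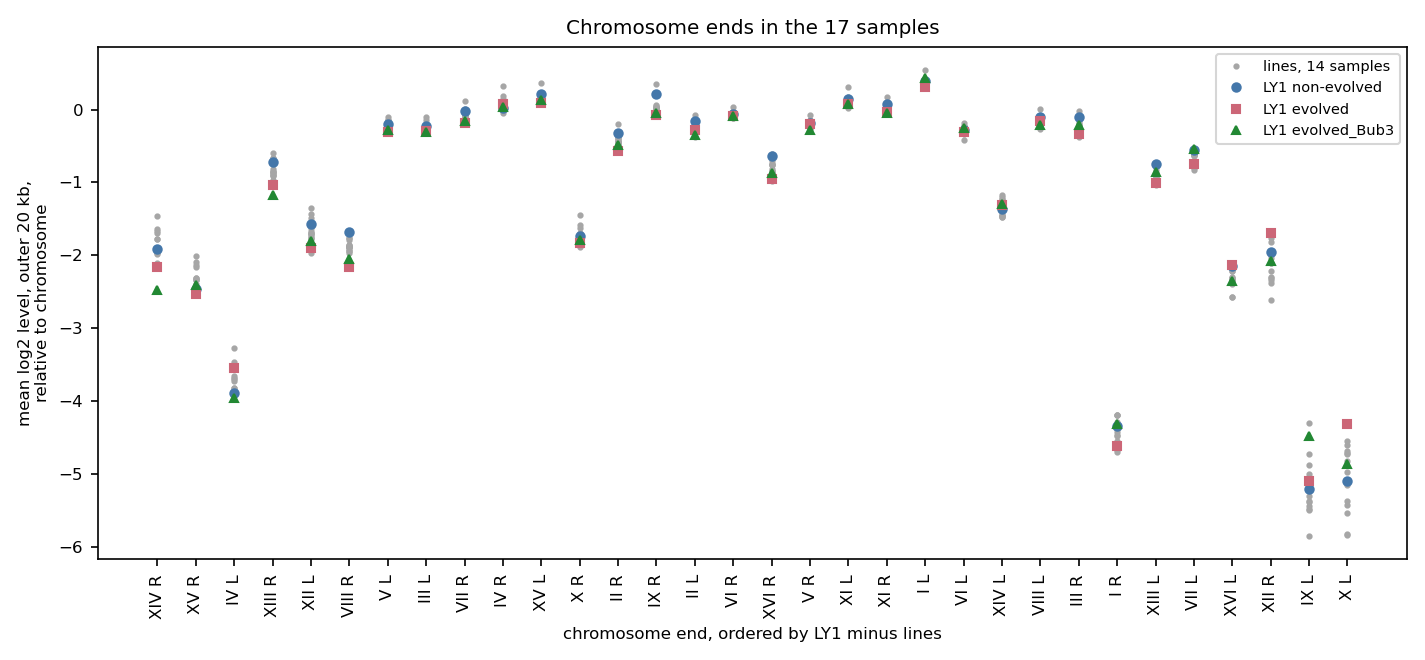
Mean log2 level of covered bins within 20 kb of each of the 32 chromosome ends, relative to the chromosome (y axis), with ends ordered by the difference of LY1 from the lines (x axis). Grey points are the 14 line samples and coloured symbols the 3 LY1 samples; the right end of XIV, at far left, has the lowest difference, -0.33.

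At the right end of chromosome XII the lines fell into separate levels and LY1 lay with one of them. The bin at the end of the Y-prime helicase gene YRF1-4 (1071001 to 1072000) was at -0.97, -1.56 and -1.47 in LY1. C3, D1, D3 and G1 lay between -1.50 and -0.92. B2 (-3.14 and -6.82), C1 (-4.12 and -3.86) and F3 (-4.16 and -4.96) were far lower in both states. These levels come from 19 and 2, 12 and 16, and 13 and 7 reads, so the distances among them are poorly measured. The difference of LY1 from the line mean was 1.32 ± 1.86 (SE, limma adjusted p = 0.9999), so the lines' own spread was larger than the difference.

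Repeats, marker loci, BUB3 and the mitochondrial genome made 26 loci, and 3 of them, ASP3, URA3 and BUB3, had an LY1 mean outside the range of the 7 line means. With 1 strain against 7, the exact permutation test over strains (two-sided) cannot give a p below 0.125, so none could reach 0.05. The 3 loci are at that smallest p. All 3 rest on the evolved_Bub3 library: for ASP3 the difference of -0.44 became -0.04 without it. Without LY1 non-evolved, 9 loci lay outside the range. Any 1 of 8 strains is the highest or lowest at some loci by order alone, so these counts do not by themselves set LY1 apart.

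The ribosomal DNA, which encodes the ribosomal RNAs, is drawn in the reference with fewer copies than cells carry, so its bins read high. Over 22 bins on chromosome XII (451575 to 489469) LY1 had 2.38, 2.62 and 2.68, a mean of 2.56 or 5.90-fold the baseline of the sample. The lines had a mean of 2.40 ± 0.23 (SD, n = 7), or 5.28-fold, and their samples ran from 1.67 to 2.82. LY1 lay inside that range (exact permutation p = 0.875). The difference of 0.16 turned to -0.29 by the median bin (exact permutation p = 1), so its direction is not settled. The lowest samples were D3 evolved at 1.67 and D1 evolved at 1.89, both down from 2.45 and 2.44 in the non-evolved state. LY1 changed by 0.24 between these states and the lines by -0.78 to 0.33.

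CUP1-1 and CUP1-2, which encode the copper-binding metallothionein, were at 0.96, 0.87 and 0.91 in LY1. The lines had a mean of 0.85 ± 0.21 (SD, n = 7; exact permutation p = 0.875). F3 was low in both states, at 0.44 and 0.39, and G1 evolved was at 0.62. The other 11 line samples ran from 0.83 to 1.09, and LY1 lay among them.

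The ENA genes, sodium pumps of the plasma membrane, read below the baseline in every sample. LY1 had a mean of -2.49 and the lines -2.46 ± 0.05 (SD, n = 7; exact permutation p = 0.5). The difference of -0.04 became -2.37 when the median bin of the locus was taken in place of the mean (exact permutation p = 0.125). In that setting an empty bin counts as 0, and a fixed low floor stands in for its log2 value. Bins of this locus can be nearly empty: 1 bin of ENA1 held 0, 2 and 8 reads in LY1 and 2 to 16 in the lines. The -2.37 is therefore not read as a copy difference, and its source was not tested. ASP3, the cell-wall asparaginase genes beside the ribosomal DNA, were nearly empty in all 17 samples: LY1 had 11, 15 and 6 reads and the lines 10 to 20. The YRF1 genes had -4.33 in LY1 and -4.34 ± 0.13 in the lines (SD, n = 7; exact permutation p = 1). Reads of near-identical copies cannot be assigned to 1 copy. How the authors kept or dropped such reads is not stated in the labels, and the levels of these families depend on it.

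The 5 flocculin genes, which encode adhesins of the cell wall, did not set LY1 apart. FLO1 was at -1.52, -2.01 and -1.69 in LY1 against -1.58 ± 0.21 in the lines (SD, n = 7; exact permutation p = 0.75). Its change from non-evolved to evolved was -0.49 in LY1 and -0.22 to 0.18 in the lines. FLO5 had 0.34 and 0.40, FLO9 -0.75 and -0.69, FLO10 0.07 and 0.09, and FLO11 -0.04 and 0.01, LY1 first. The differences lay between -0.16 and -0.02, and each LY1 mean lay inside the range of the line means. That of FLO10 turned to 0.05 without LY1 evolved_Bub3 and to 0.01 by the median bin.

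The mating-type cassettes share sequence, so their reads cannot be assigned to 1 of them. HMLALPHA1 was at -2.03 in LY1 and -1.85 ± 0.17 in the lines, HMLALPHA2 at -2.36 and -2.17 ± 0.14, MATALPHA1 at -3.81 and -3.74 ± 0.32, and MATALPHA2 at -2.85 and -2.77 ± 0.26 (SD, n = 7). The alpha genes thus read below their chromosome on average in LY1 and in the lines. HMRA1 was at -0.14 and -0.06 ± 0.32 and HMRA2 at -0.41 and -0.31 ± 0.39, and these means hide the split among LY1 libraries given above. Mating type was not derived from these values.

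**Figure D4:**
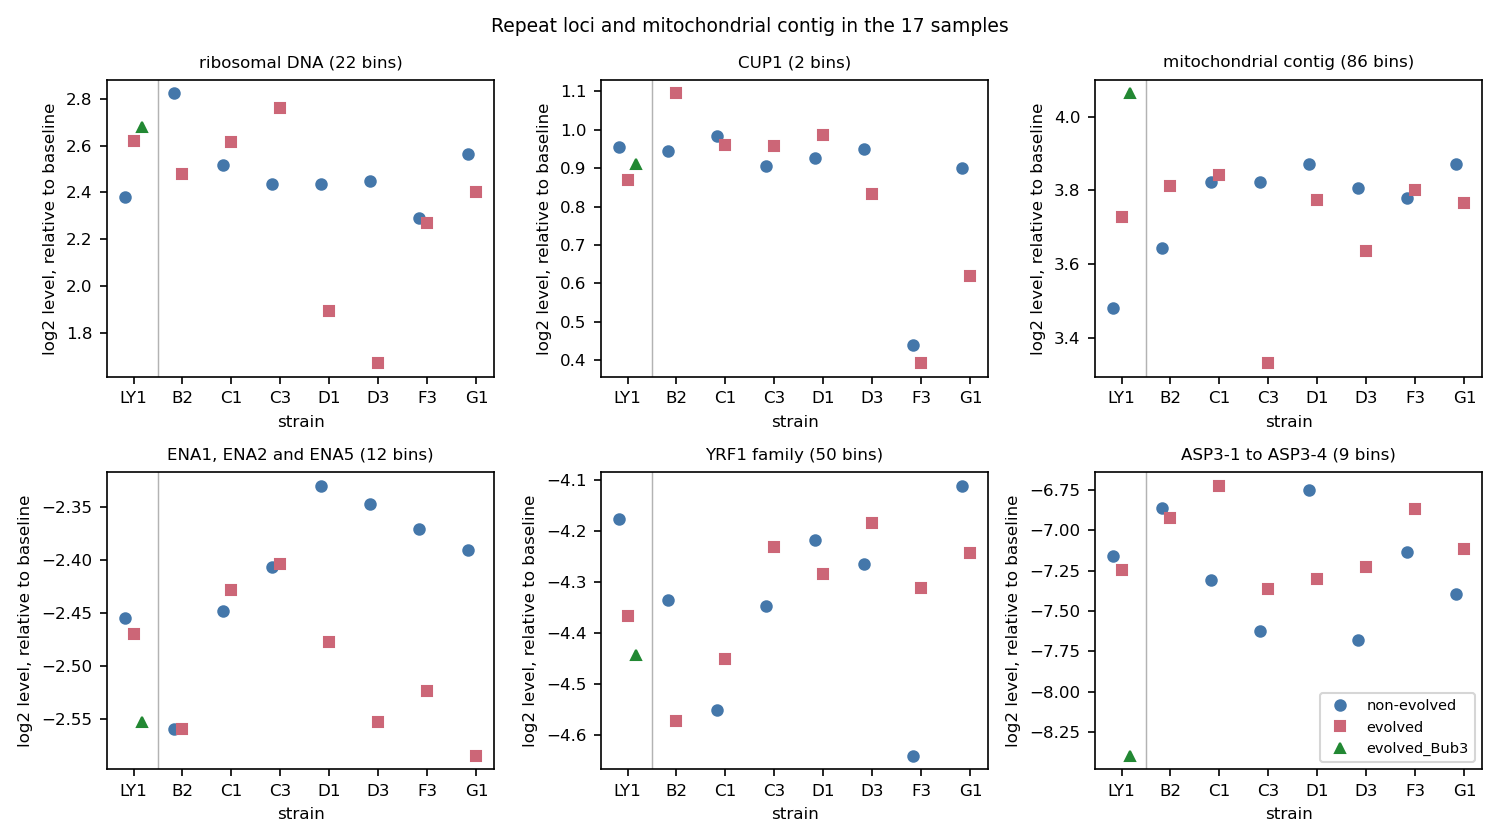
Log2 level of 5 repeat families and the mitochondrial contig relative to the sample baseline (y axis, its range set per panel) in each of the 17 samples (x axis, by strain; symbols mark the state). LY1 lies within the spread of the lines at the ribosomal DNA and CUP1, where D3 evolved (1.67) and F3 (0.44 and 0.39) are low.

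The mitochondrial genome was whole in LY1. All 86 bins were covered in the 3 samples, with levels of 3.48, 3.73 and 4.06, or 11.2- to 16.7-fold the nuclear baseline. The 11 line samples with a whole mitochondrial genome ran from 3.64 to 3.87, with a mean of 3.80 ± 0.06 (SD, n = 11). LY1 non-evolved lay below them all and evolved_Bub3 above them all. The LY1 mean of 3.76 ± 0.29 (SD over the 3 states) and the line mean of 3.76 ± 0.09 (SD, n = 7) did not separate (exact permutation p = 1). That line mean includes C3, D1 and D3 evolved, which kept only a stretch of the contig, and without them the difference was -0.05. It was 0.14 without LY1 non-evolved and -0.15 without LY1 evolved_Bub3, so the near equality of the means depends on which libraries enter.

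The other 3 line samples kept only a stretch of the contig. C3 evolved had 6 covered bins (34001 to 36000 and 47001 to 51000), and its last 4 were at 206.8-fold the baseline. D1 evolved and D3 evolved had the same 10 covered bins (41001 to 51000), at 117.7- and 106.8-fold. Their mean levels over the whole contig were 3.33, 3.77 and 3.63. D1 evolved lay inside the range of the whole line samples, D3 evolved just below it, and C3 evolved below every whole sample. The median mitochondrial bin of these samples is empty, which shifts their centred mitochondrial bins in the fit over bins, and the fit of nuclear bins alone also called 0. Reads outside the covered bins numbered 42, 5 and 64.

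By gene, COX1, COX2 and COX3 (subunits of cytochrome c oxidase), ATP6 and ATP8 (subunits of the ATP synthase) and the 15S and 21S ribosomal RNAs had 0 to 7 reads in these 3 samples. COB, the cytochrome b gene, and OLI1, which encodes subunit 9 of the ATP synthase, had 0 reads in C3 evolved. They kept 50771 and 31812 reads in D1 evolved and 69539 and 44410 in D3 evolved, with COB kept in part. VAR1, a mitochondrial ribosomal protein gene, lay in the kept stretch of all 3, with 119812, 51102 and 71585 reads. The non-evolved samples of the same lines were whole, and so were all LY1 samples, in which these 10 genes read between 3.30 and 4.28. D1 evolved and D3 evolved were also the samples with the lowest ribosomal DNA, while C3 evolved had 2.76 there; whether the losses are linked was not tested.

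**Figure D5:**
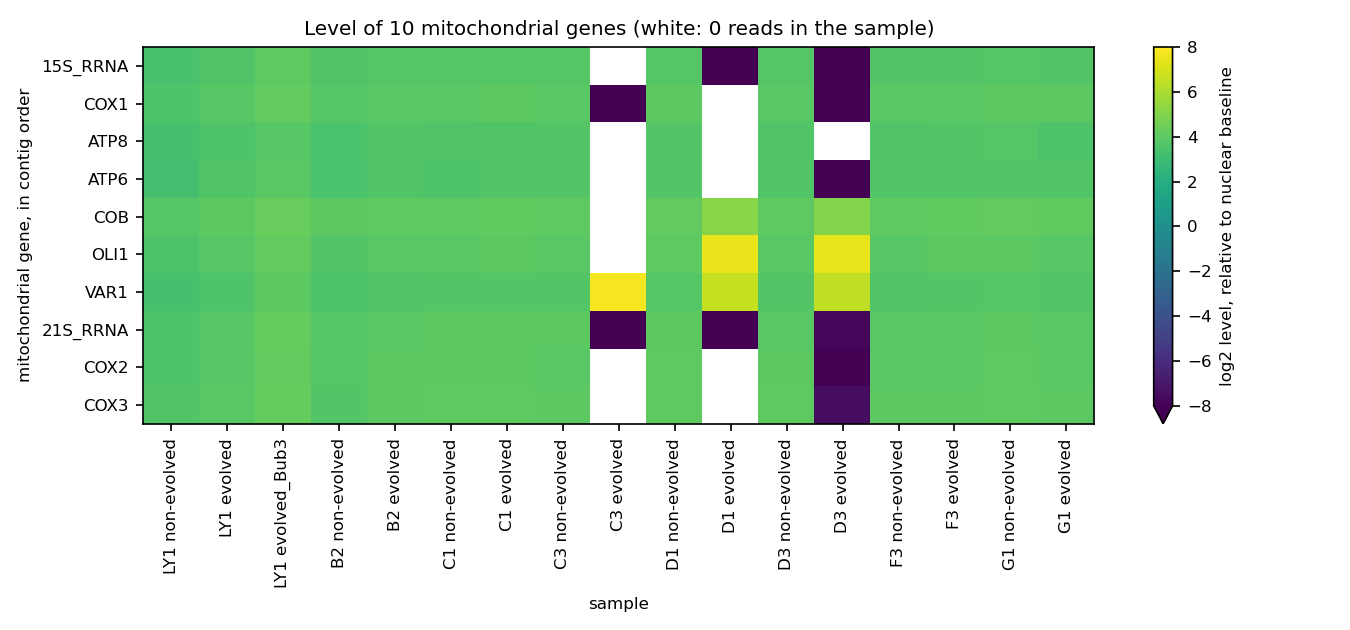
Log2 level of 10 mitochondrial genes (y axis, in contig order) relative to the nuclear baseline (colour, with the darkest shade for -8 and below) in each of the 17 samples, where white marks 0 reads. The 3 LY1 samples are covered at all 10 genes, whereas C3 evolved, D1 evolved and D3 evolved lack most of them.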

How the data were processed

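Genomic DNA of the 17 samples was tagmented and sequenced as paired-end reads, per the labels. Trimmomatic 0.39, BWA 0.7.17, Picard 2.27.1 and GATK are named in the submitters' processing notes, with no settings. The authors deposited log2 copy ratios per 1 kb bin. Whole reads could be recovered from these values (99.99% to 100% of values within 0.01 reads). Bins without reads were set to 0.5 reads. Each of 12165 bins (12079 nuclear) was centred on its chromosome's median, while repeats and the mitochondrial contig were set against the median of the 16 chromosome medians.

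Strains were the unit of replication: 8 strain means, LY1 over 3 samples and each line over 2. Bins covered in over 50% of samples and the 32 ends were tested with limma 3.58.1 in R 4.3.3 (Benjamini-Hochberg over all bins or ends, threshold 0.05). Loci were tested with an exact permutation test over strains. Limma's robust fit with its default variance trend was kept for the change between states after a trend against the mean level had also been run. They gave 4 and 0 calls. Fits were run on simulated reads with changes only in bins of 50 mean reads or more, so their behaviour in thinner bins was not tested. Named loci are 26 listed loci, the called bins, and the 3 highest and 3 lowest ends. All 45 listed genes matched the gene table. The named Ty group was not used here. Members and lists were chosen with earlier results of these data known. The line codes in the labels pair the states; deviations of the 7 pairs from their state's mean correlated at 0.00 to 0.05. No 2 samples differed by less than sampling noise (chi-square over degrees of freedom 1.684 to 2.872).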

Additional observations from a re-analysis of the deposited data

Results flagged for a closer look

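Among 116 groups of 7 line samples (58 loci or ends in each state), 17 held a sample far from the other 6; chance gives about 1 in 20. In B2 non-evolved, the library of the widest bin spread, 11 values stood apart. They were the mitochondrial level of 3.64, FLO5 at 0.64 and the ends I left at 0.54, II right at -0.19, III right at -0.0234, IV right at 0.32, VIII left at 0.0125, X right at -1.44, XI left at 0.30, XI right at 0.17 and XV left at 0.36. How far its depth of 167 reads per median bin sets these values was not tested. The other 6 were CUP1 of F3 non-evolved at 0.44, MATALPHA1 of D1 non-evolved at -4.18, the mitochondrial level of C3 evolved at 3.33, the left end of II in D3 evolved at -0.37, the right end of II in D1 evolved at -0.37 and the right end of IX in B2 evolved at 0.20.

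The change between states differed between LY1 and the lines in 4 bins of the limma fit: by -1.91 at I_bin_209, -1.16 at II_bin_225, 2.85 at IV_bin_984 and -1.27 at VIII_bin_551. None was called with the variance trend against the mean level.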

How the results depend on the processing

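Only 1 LY1 strain was tested, and bins of few reads set the limits. The comparison of bins called 0, and it called 2 with no filter on empty bins and 1 without the robust trend. The non-evolved samples alone, with 1 LY1 sample, set apart a bin of ENA1 and a bin of YLR256W-A, by -3.65 and -4.05. LY1 non-evolved held 0 reads in both, so the value given to empty bins sets these differences and they are no support. Leaving out 1 replicate at a time gave 0 to 3 calls, and 3 without LY1 and B2 non-evolved together. With all 17 samples and the strain as a replicate block, 0 bins were called (698 at an unadjusted p under 0.05). The change between states called 4 bins, 0 in the interaction with no replicate block, 2 with no filter, 2 without the robust trend, 3 to 7 when a line was left out (7 without B2) and 0 with the trend against the mean level. Chromosome ends called 0, 0 to 2 when a replicate was left out (2 without LY1 non-evolved, 1 without LY1 evolved, 1 without C1) and 1 without both non-evolved libraries. Loci outside the line range numbered 3, 5 by the median bin, and up to 9 with a replicate left out (9 without LY1 non-evolved, 5 without LY1 evolved and 5 without B2). Causes were not tested. Of 364 single-locus values under the alternatives, 343 moved by less than 1 SD and 21 by more. Some alternatives were added after seeing the data: those without 1 or both non-evolved libraries, nuclear bins alone, evolved_Bub3 in place of evolved, the trend against the mean level, and loci without libraries of partial mitochondrial genome. The GC correction was not run, since no genome of the files' build was used here.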
